A study of Mus musculus with 8 samples.

Results

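All-trans retinoic acid (ATRA) brought a small set of array probes from background to a measurable signal in RAW264.7, a macrophage-like line of mouse origin, whether or not interleukin-13 (IL-13) was present. The set was defined on the flags and signals of Agilent whole-genome mouse arrays read in a single colour (Cy3). A probe was a member if the scanner software called it well above background on all 4 arrays with ATRA, gave it no such call on at least 3 of the 4 arrays without ATRA, and if its mean processed signal with ATRA was at least 4-fold that without. Of 41174 probes, 19 met this rule, and they stood for 17 genes of the 27339 gene names on the array. The flags alone were met by 38 probes. The ATRA effect on the members was therefore what chose them, and its values are given as a description with no test.

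The arrays held total RNA of cells in DMEM with 15% heat-inactivated bovine serum. Control cells received neither agent, and the others received ATRA alone, IL-13 alone, or IL-13 together with ATRA, for 12 h or 24 h; every treatment had 1 array at each time. The labels give no doses, and nothing in them states separate cultures. With 1 array per treatment and time, the fits have no replicates at the same time. An SE or p-value here therefore measures how unevenly the treatments changed between 12 h and 24 h. This mixes time, slide and technical spread, and is not a spread among replicates. The arrays of 12 h shared slide 1 and those of 24 h shared slide 2; time and slide cannot be told apart. RAW264.7 is a tumour line kept in culture, which limits it as a model of tissue macrophages. Across the arrays, 54.1% to 61.4% of probes were well above background, 0 probes were saturated, and the 75th percentile of the signal lay between 431 and 713. The number of arrays limits the precision. Of 13 macrophage identity genes, 12 to 13 were well above background on each array, and of 5 epithelial markers 0 were so on any array.

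ATRA is the active acid form of vitamin A. It binds retinoic acid receptors, which sit with retinoid X receptors on pairs of short half-sites in DNA and turn on nearby genes when the ligand arrives. IL-13 is a type 2 cytokine that acts on macrophages through IL-4 receptor alpha and STAT6 and drives the alternative activation programme.

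By known role, 5 of the 17 member genes encode plasma membrane proteins, 4 encode secreted proteins, 3 have roles in signalling or cilia, 2 encode sugar-modifying enzymes and 1 encodes a transcription factor. The other 2 have no protein product named in the tables used, a RefSeq lncRNA (BC106179) and a transcript that keeps its array name (ENSMUST00000181716). The members lay on 10 chromosomes. Chromosome 2 held 4 of them, Bmp2, Mmp9, Tspan18 and ENSMUST00000181716.

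Slco2b1, an organic anion transporter of the plasma membrane, had the largest difference among members between ATRA alone and ATRA with IL-13. In bulk RNA, more RNA per cell and more cells holding the RNA cannot be told apart, here and for every member. Its probe (mm9 chr7:106807008-106807067, minus strand) had processed signals, in intensity units, of 536 at 12 h and 409 at 24 h with ATRA alone. With IL-13 and ATRA they were 48.7 and 104. Without ATRA they were 6.65 and 1.72 in control cells and 2.25 and 1.89 with IL-13, none of them well above background. All 4 ATRA-containing arrays lay above all others, and both arrays with ATRA alone lay above both with IL-13 and ATRA. Since the groups without ATRA give only a bound, ATRA alone was at least 57.2-fold higher than control, and IL-13 with ATRA at least 8.91-fold higher than IL-13. Each bound divides the bright group's mean by the higher, on each array, of the probe's own signal and the lowest signal called well above background, after scaling the arrays to a common 75th percentile.

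Slco2b1 is shown with 1 of its promoter windows, which carried the only match to GAGGAAGT among 14 member windows. GAGGAAGT is a motif of PU.1, the transcription factor that defines the macrophage lineage. The 14 windows covered 10 of the 17 member genes, and the other windows of Slco2b1 held no match. The window shown runs from 250 bases before to 50 bases after 1 RefSeq start (GRCm38.p6 chr7:99711291-99711590, minus strand). The motif is in capitals, beginning at position 6 when the start is 0. The motif was present in 3.2% of all 32851 promoter windows.
Slco2b1: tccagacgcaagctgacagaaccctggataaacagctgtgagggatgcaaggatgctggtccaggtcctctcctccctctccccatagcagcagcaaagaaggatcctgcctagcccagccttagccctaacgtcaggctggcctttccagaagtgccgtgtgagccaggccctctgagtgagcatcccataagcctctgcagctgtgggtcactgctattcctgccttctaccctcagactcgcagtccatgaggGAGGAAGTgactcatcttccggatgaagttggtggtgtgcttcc

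Slc26a9 encodes a chloride channel and anion transporter best known in epithelia. Its signals were 92.8 and 88.6 with ATRA, 75 and 77.8 with IL-13 and ATRA, 12.8 and 8.85 in control cells, and 9.38 and 6.46 with IL-13, at 12 h and 24 h. The 4 ATRA-containing arrays stood close together, and the control array at 12 h was the only other one called above background. The fold of IL-13 with ATRA over IL-13 was at least 9.58. Its promoter is shown because it alone held TATAAA among the 14 member windows, which covered 10 of 17 genes (GRCm38.p6 chr1:131743772-131744071, plus strand). In it TATAAA was present on both strands with shared bases, at position -28 on the gene's strand. TATAAA was found in 13.6% of all windows.
Slc26a9: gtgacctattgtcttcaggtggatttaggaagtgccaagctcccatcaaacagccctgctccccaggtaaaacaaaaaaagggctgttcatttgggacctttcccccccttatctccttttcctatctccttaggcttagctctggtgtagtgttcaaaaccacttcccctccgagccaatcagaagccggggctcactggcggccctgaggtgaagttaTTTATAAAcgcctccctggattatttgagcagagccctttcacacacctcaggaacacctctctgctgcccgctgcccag

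Tspan18 encodes a tetraspanin, a membrane-spanning protein that organises other membrane proteins. Signals at its probe (mm9 chr2:93041981-93042040, minus strand) were 84.5 and 103 with ATRA alone and 20.9 and 65.0 with IL-13 and ATRA, against 2.26 to 5.14 on the arrays without ATRA. The array with IL-13 and ATRA at 12 h was the lowest of the 4, yet above every array without ATRA. ENSMUST00000181716, which the array annotation describes as a tetraspanin 18 transcript, lay on the same strand with its probe 109647 bases away. Its signals were 95.1 and 109 with ATRA and 44.4 and 119 with IL-13 and ATRA, against 5.01 and 7.9 in control cells and 3.78 and 3.23 with IL-13. In both, the 12 h array with IL-13 and ATRA was the lowest with ATRA, and the fold over IL-13 was at least 4.62 for Tspan18 and at least 9.11 for ENSMUST00000181716.

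Gja1, the gap junction protein connexin 43, was measured by 10 spots per array. Its mean signals were 54.5 and 51.9 with ATRA, 21.8 and 38.4 with IL-13 and ATRA, and 5.35 to 10.5 without ATRA. Plppr3, a phospholipid phosphatase-related membrane protein, reached 35.1 and 58.4 with ATRA and 10.3 and 40.5 with IL-13 and ATRA. Its value of 10.3 lay close to the highest array without ATRA, the control at 12 h with 8.61, so for Plppr3 the groups separated narrowly.

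Among the secreted products, Mmp9 encodes gelatinase B, a protease that cuts gelatin and basement membrane collagen. Both of its probes were members. The brighter (mm9 chr2:164780303-164780362, plus strand) read 119.5 and 241 with ATRA and 266 and 349 with IL-13 and ATRA. Control cells gave 2.17 and 2.08, and IL-13 alone gave 8.66 and 12.7, of which the 24 h array was called above background. At this probe both arrays with IL-13 and ATRA lay above both with ATRA alone. Its other probe, with 10 spots, read 73.7 and 163 with ATRA, 142 and 203 with IL-13 and ATRA, and 2.05 to 5.97 without ATRA. ATRA alone was at least 20.7-fold above control at the first probe and at least 13.4-fold at the second.

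Col14a1 encodes a collagen that associates with fibrils. At its member probe (mm9 chr15:55352132-55352191) signals were 177 and 254 with ATRA and 169 and 223 with IL-13 and ATRA, against 3.54 to 5.28 on the other arrays. All 4 arrays with ATRA lay above all others. The bounds were alike without and with IL-13, at least 25.9-fold and at least 24.3-fold.

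Fam20a encodes a secretory pathway pseudokinase that partners the kinase FAM20C, which phosphorylates secreted proteins of bone, teeth and milk. Both Fam20a probes were members, and they share 40 bases, so they are not independent measurements. The first read 137 and 71.7 with ATRA and 96.2 and 93.1 with IL-13 and ATRA, against 1.83 to 5.04 without ATRA. The second read 118 and 56.0, then 80.8 and 61.7, against 2.52 to 7.4. At both probes the ATRA array at 12 h was the highest. The first 30 bases of each are shown to make the overlap visible, with the 10 bases common to both stretches in capitals (mm9 chr11:109534409-109534468 and chr11:109534429-109534488, minus strand).
Fam20a, first probe: AAACGGGATCcactgaacctcatctttatc
Fam20a, second probe: aggaacgctttgaaaaaggcAAACGGGATC

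Bmp2 encodes a bone morphogenetic protein, a ligand of the TGF-beta family. Its means over 10 spots were 57.7 and 124 with ATRA and 37.3 and 64.2 with IL-13 and ATRA, and 4.08, 2.47 and 2.65 on control and IL-13 arrays other than that with IL-13 at 24 h. On that array the mean was 47.2, so Bmp2 was the member whose groups overlapped. The other 18 member probes had every ATRA-containing array above every other array, which the rule made likely in advance. The share of all probes with this separation was not counted. Of the 10 Bmp2 spots on the IL-13 array at 24 h, 1 read 446 and was called outlying by the software, and the other 9 averaged 2.91. Without that spot the ratio of the rule rose from 5.02 to 25.5.

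Camkk1 encodes a kinase that activates calcium-calmodulin-dependent kinases and had the largest ratio of the rule. Its probe (mm9 chr11:72855450-72855509, plus strand) read 1206 and 1479 with ATRA, and 493 and 1383 with IL-13 and ATRA. The arrays without ATRA read 1.77 to 4.14, and none was above background. The bounds were at least 163-fold without IL-13 and at least 104-fold with it.

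Ccdc65, a subunit of the dynein regulatory complex of motile cilia, read 49.3 and 57.5 with ATRA, 40.1 and 69.2 with IL-13 and ATRA, and 6.85 to 8.98 without ATRA. Cmah makes N-glycolylneuraminic acid, a sialic acid that mice have and humans lack. It read 61.4 and 47.6 with ATRA and 27.2 and 46.0 with IL-13 and ATRA, against 2.56 to 14.7 without, the highest being the control array at 12 h. Ndst1 adds sulfate to heparan sulfate chains. Its member probe read 80.3 and 91.6 with ATRA and 61.4 and 104 with IL-13 and ATRA, against 3.89 to 8.08, which gave bounds of at least 10.5-fold and at least 10.03-fold. Mlxipl encodes ChREBP, a transcription factor that responds to glucose. At its member probe the signals were 22.5, 28.8, 26.3 and 20.7 with ATRA and 2.13 to 8.67 without. The lncRNA BC106179 read 38.1 and 39.7 with ATRA and 19.9 and 27.1 with IL-13 and ATRA, against 3.38 to 8.63. In each of these genes all ATRA-containing arrays lay above the others, which the rule made likely.

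**Figure D1:**
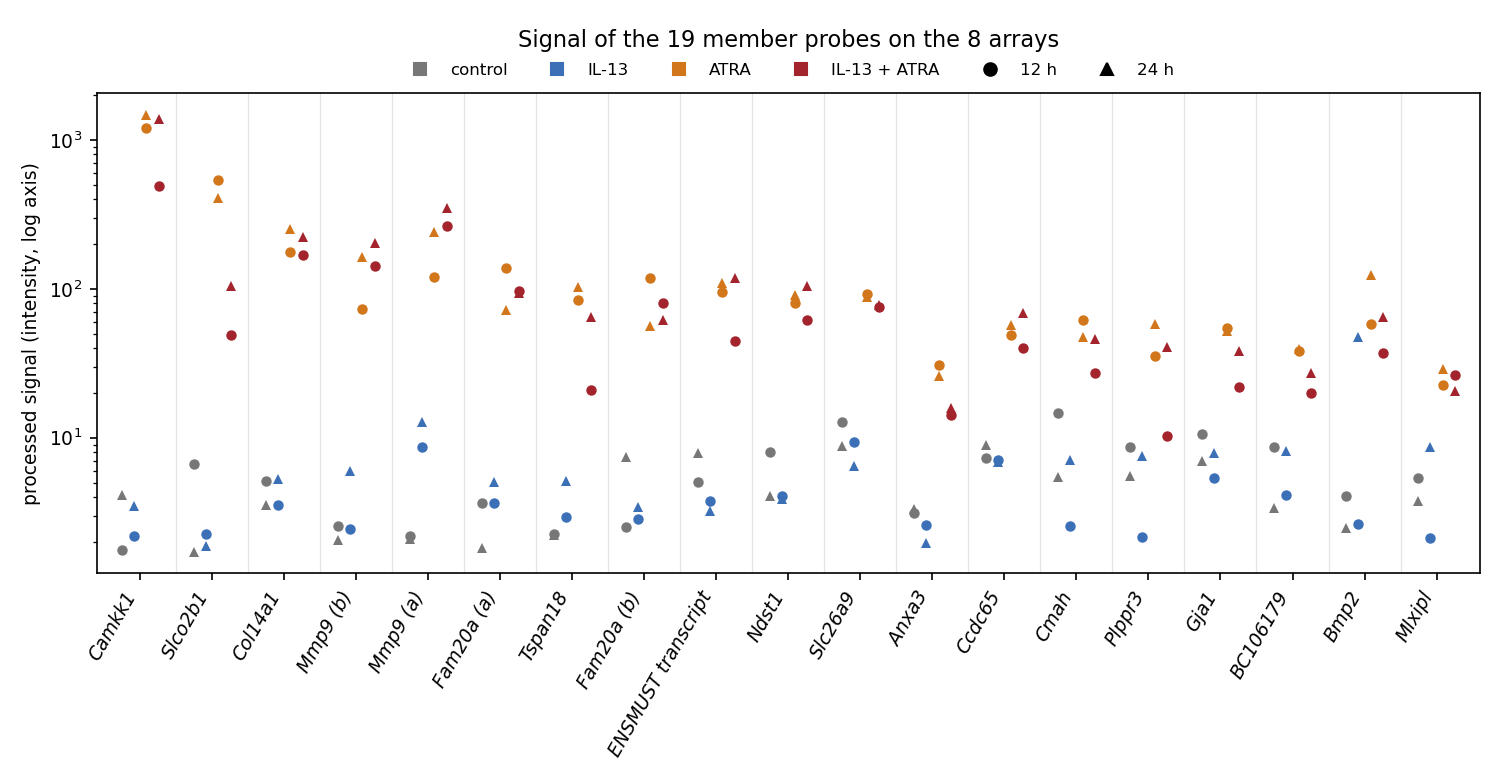
Processed signal (intensity, log axis) of each of the 19 member probes on the 8 arrays, with 1 point per array, colour for treatment and shape for time; "a" and "b" mark the brighter and the other probe of Mmp9 and Fam20a, and "ENSMUST transcript" stands for ENSMUST00000181716. In 18 of the 19 probes the 4 arrays with ATRA lie above the 4 without, and the blue triangle of Bmp2 at 47.2 is the exception. The rule made this separation likely in advance.

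Of the 19 member probes, 13 were above background on 0 of the 4 arrays without ATRA and 6 on 1 of them. These calls fell on the control array at 12 h (Cmah and Slc26a9), the control array at 24 h (Ccdc65 and ENSMUST00000181716) and the IL-13 array at 24 h (Mmp9 and Mlxipl). The IL-13 array at 12 h had 0 of them. In this order, 59.8%, 59.5%, 61.4% and 54.1% of all probes were above background on these arrays. The members just inside the 4-fold threshold were BC106179, Bmp2 and Mlxipl, with ratios of 5.14, 5.02 and 4.94. Just outside lay a probe of Rarb at 3.89, of Fpr2 at 3.88 and of Trem1 at 3.85.

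"Switched on" held for the probe rather than for the gene in several cases, as other probes of the same genes showed. Of the 17 genes, 7 had a further probe on the array (10 probes in all), and 8 were measured by a single probe. Anxa3 encodes annexin A3, a calcium-dependent phospholipid-binding protein. Its member probe, designed on a cDNA clone, read 31.0 and 26.2 with ATRA, 14.2 and 15.8 with IL-13 and ATRA, and 1.96 to 3.3 without. The probe on its RefSeq mRNA, 45799 bases away, was well above background on all 8 arrays. It read 4305 and 3724 in control cells, 5622 and 8421 with IL-13, 30148 and 33597 with ATRA, and 31221 and 33067 with IL-13 and ATRA. Thus Anxa3 RNA was present without ATRA and 5.8-fold higher on average with it, while the member probe reads a region with no call in any array without ATRA.

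Ndst1 was likewise detected without ATRA at other probes, and Mlxipl at another probe only close to the lowest signals called. An Ndst1 probe 1679 bases away read 13.8 to 45.7 without ATRA and 402 to 583 with it, above background on all 8 arrays. A second Ndst1 probe was also above background on all 8 arrays and had a ratio of only 1.22, and the remaining one had a ratio of 5.95. The other Mlxipl probe, 250 bases away, was above background on both control arrays at 8.93 and 9.03, and fell outside the rule for that reason. The lowest signals called on those arrays were 8.79 and 7.59, and the probe was called on neither IL-13 array (6.69 and 4.77). It read 460, 432, 560 and 436 with ATRA, a ratio of 64.2.

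In other genes the further probes showed less. The second Cmah probe was above background on the 2 arrays with ATRA alone (17.4 and 18.0) and on no other. Both other Tspan18 probes and the other Ccdc65 probe were above background on 0 of 8 arrays. The other Col14a1 probe, 175700 bases away, was above background on 1 array, that of cells given IL-13 for 12 h, at 129, and read 1.9 to 4.33 on the arrays with ATRA. The first 30 bases of the probes of Anxa3 and Col14a1 are shown because the pairs read distant stretches of one gene with different results. Whether these stretches are exonic was not assigned, since no mm9 annotation was used here.
Anxa3, member probe (chr5:97228985-97229044): ctgattctcatagcagtatattttccgatg
Anxa3, mRNA probe (chr5:97274784-97274843): ctagaattaaagacctactaatgattttct
Col14a1, member probe (chr15:55352132-55352191): caaaaccatagagtctgttttccagtagtc
Col14a1, other probe (chr15:55176432-55176491): tttagagaaaagaaagtatccaacaaagcc

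Csn3, the milk protein kappa-casein, was listed with Slco2b1 and Fam20a as a marker of the set but did not meet the rule. Its brighter probe read 581 and 842 with ATRA and 531 and 692 with IL-13 and ATRA, and 14.5 and 16.0 in control cells, both called above background. With IL-13 alone it read 9.01 and 4.7. The ratio was 59.9, and it was the 2 control calls that kept it out; its second probe was above background on 3 of 4 arrays with ATRA and had a ratio of 3.61.

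**Figure D2:**
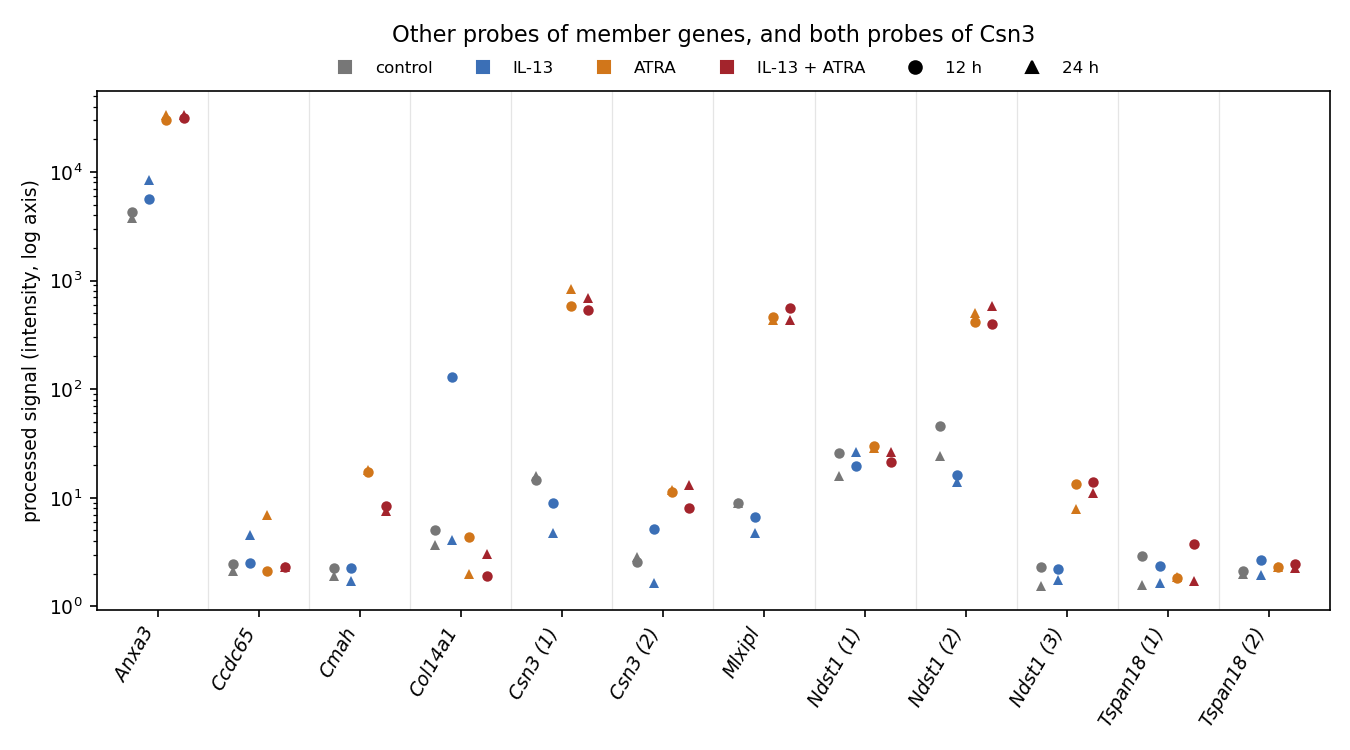
Processed signal (intensity, log axis) of the 10 further probes of member genes and of both Csn3 probes on the 8 arrays, with colour for treatment and shape for time. The Anxa3 mRNA probe is above 3724 on every array, and the Col14a1 probe is high on a single array, IL-13 for 12 h, at 129.

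The rule did not compare IL-13 with ATRA against ATRA alone, so that difference was tested. It did require a call above background on all 4 ATRA-containing arrays. A probe that fell to background in either group could not be a member, so the size of the difference was bounded in advance. All probes, given for comparison, were not chosen in this way. The test was limma over all 24016 probes that were detected in both arrays of 1 or more treatments. A call is an adjusted p (Benjamini-Hochberg) under 0.05, and 0.337% of all probes were called (81 probes), 0.25% higher and 0.0874% lower. Of the 17 member genes 0 were called. In the same fit 4 had an unadjusted p under 0.05 (Slco2b1, Tspan18, Mmp9 and Gja1), beside 3310 of all 24016 probes. On the log2 scale the median difference of the members, IL-13 with ATRA minus ATRA, was -0.46, beside 0.01 for all probes. It was lower for 11 genes and higher for 6, which is 64.7% lower beside 49.1% of all probes. At 12 h the median was -0.61 and at 24 h -0.21. The sign was lower at both times for 9 genes, higher at both for 2 (Mmp9 and Ccdc65) and opposite for 6. Of all 24016 probes, 8220 (34.2%) were lower at both times, 8507 higher at both and 7289 opposite.

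The lowest was Slco2b1, at -2.56 ± 0.61 (log2 difference ± SE, 1 array per treatment and time). Its limma adjusted p was 0.202, with -3.13 at 12 h and -1.99 at 24 h. With the normexp background correction in place of the processed signals the difference was -1.89, with a limma adjusted p of 0.0144. This was the single member call under any setting tried. Over all settings that limma adjusted p ranged from 0.0144 to 0.638. The difference was -1.61 without the 12 h array of IL-13 with ATRA and -3.52 without the 24 h array. Tspan18 was -1.18 ± 0.35, with -1.69 at 12 h and -0.68 at 24 h (limma adjusted p = 0.267). Plppr3 was -0.995 ± 0.51, Anxa3 -0.77 ± 0.33 and Gja1 -0.72 ± 0.26, each lower at both times, with limma adjusted p of 0.441, 0.378 and 0.325. The same gap for Camkk1 was -0.96 at 12 h and -0.11 at 24 h. At the Anxa3 mRNA probe it was 0.17 ± 0.15, against -0.77 at the member probe.

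At the other end, Mmp9 was 0.999 ± 0.32, with 1.48 at 12 h and 0.51 at 24 h (limma adjusted p = 0.290), and 0.79 ± 0.33 at its other probe. The next highest were Ccdc65 at 0.14 ± 0.34, Fam20a at 0.09 ± 0.20, Ndst1 at 0.06 ± 0.40 and Mlxipl at 0.03 ± 0.45, all within 1 SE of 0. Col14a1 was 0.03 ± 0.26 and Slc26a9 -0.09 ± 0.32. With 2 arrays per treatment, a p above the threshold does not show that the levels with and without IL-13 were the same.

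**Figure D3:**
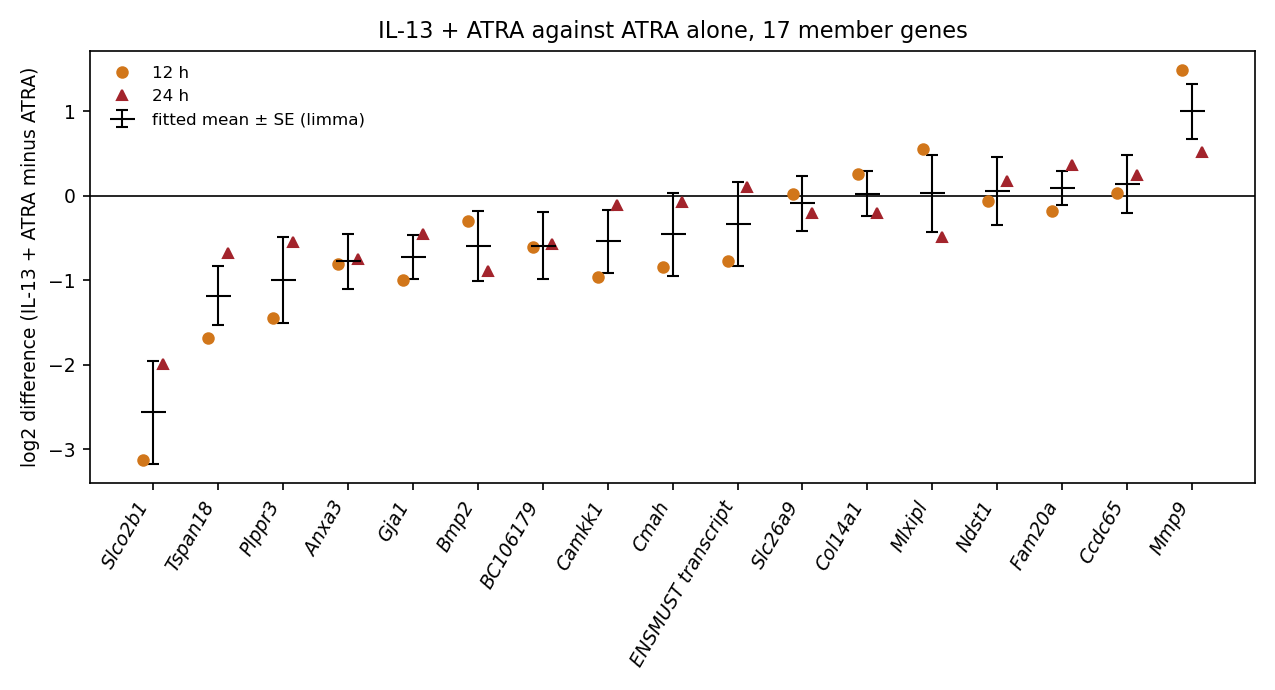
Log2 difference between IL-13 with ATRA and ATRA alone for the 17 member genes, ordered by value; circles are 12 h, triangles 24 h, and bars the fitted mean ± SE. Slco2b1 at -2.56 and Mmp9 at 0.999 lie at the ends, and 9 genes have both points below 0, as do 34.2% of all probes.

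The interaction asks whether ATRA changed a gene by another amount with IL-13 than without. For members it rests partly on signals below background, since the arrays without ATRA enter it. It called 0.0125% of all probes (3 probes, 0.00833% higher and 0.00416% lower) and 0 of 17 member genes (lowest limma adjusted p 0.9996). An unadjusted limma p under 0.05 was found for 844 of all 24016 probes. Among members 2 had one, Tspan18 at -1.91 ± 0.49 and Mmp9 at -1.23 ± 0.46. For Mmp9 the second probe gave 0.21 ± 0.47, of the other sign.

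Between 12 h and 24 h in the ATRA-containing arrays, limma called 0% of all probes, 0 of 24016, with 1645 at an unadjusted p under 0.05, and 3 probes with a trended, robust prior. Accordingly 0 of 17 member genes were called (lowest limma adjusted p 0.703), and 5 had an unadjusted p under 0.05 (Bmp2, Plppr3, Col14a1, Tspan18 and Ndst1). Members had to be above background at both times with ATRA, which bounded their difference between the times in advance. The median log2 difference of the members, 24 h minus 12 h, was 0.44, beside 0.00 for all probes. It was above 0 for 13 genes and below for 4. In 11 genes it was above 0 both with ATRA alone and with IL-13 and ATRA, a pattern found in 30.8% of all probes.

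Plppr3 had the largest value, 1.34 ± 0.45 (log2 ± SE; 0.89 with ATRA and 1.79 with IL-13 and ATRA). Tspan18 was 0.94 ± 0.26, Bmp2 0.89 ± 0.22, Camkk1 0.87 ± 0.41 and ENSMUST00000181716 0.79 ± 0.48, all above 0 in both treatments. Fam20a had the lowest, -0.51 ± 0.22, with -0.78 under ATRA and -0.24 under IL-13 and ATRA. Its second probe gave -0.75 ± 0.53. Anxa3 was the other gene below 0 in both treatments, at -0.06 ± 0.34. Slco2b1 was -0.23 with ATRA and 0.90 with IL-13 and ATRA, so its gap between the treatments was narrower at 24 h.

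**Figure D4:**
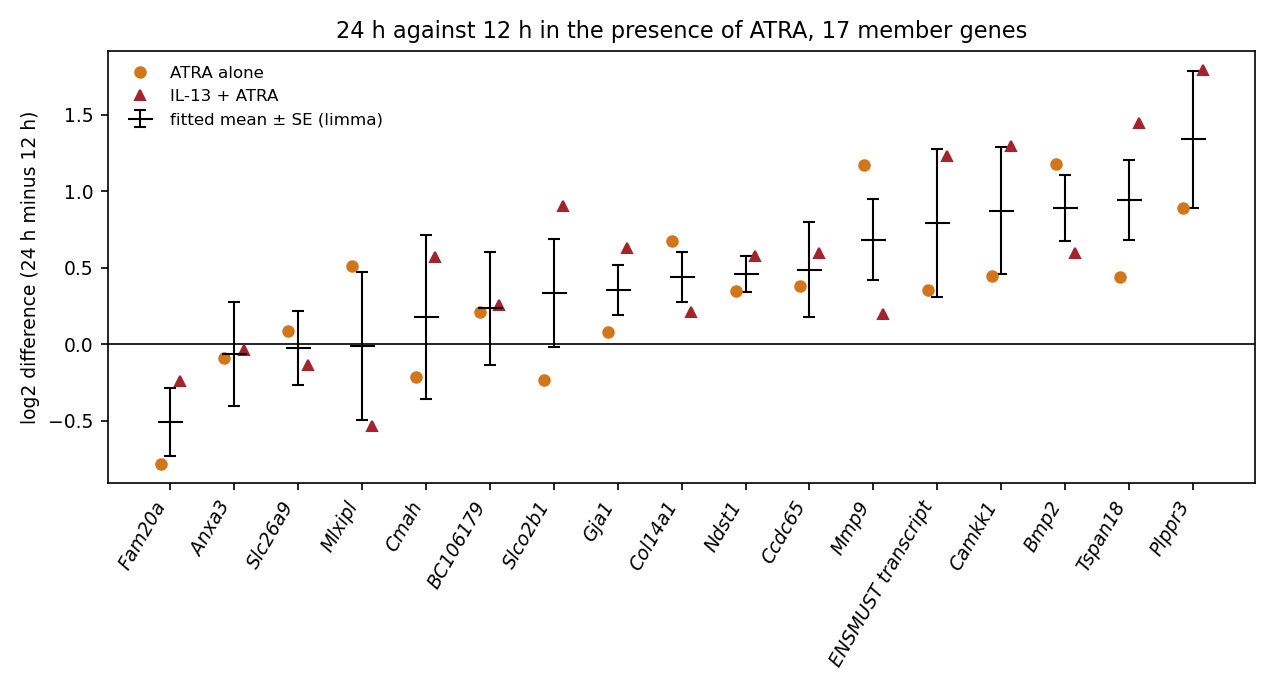
Log2 difference between 24 h and 12 h for the 17 member genes within ATRA alone (circles) and IL-13 with ATRA (triangles), with the fitted mean ± SE. Values for 11 genes lie above 0 in both treatments, and Fam20a lies lowest at -0.51.

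The genes around the members were read from lists of known biology. The contrast of ATRA-containing minus other arrays called 7.76% of all probes, with 2.8% higher and 4.96% lower. Of 27 retinoid pathway genes 26 were on the array and 16 were tested. Of the 16 tested, 3 rose and 0 fell by limma, with a median of 0.17 beside -0.02 for all probes. Of the 26 on the array, 6 were above background on 0 of 8 arrays. The risers were Dhrs3, a retinal reductase (2.15 ± 0.13 log2), Nrip1, a nuclear receptor corepressor (2.01 ± 0.10), and Rarb, retinoic acid receptor beta (1.99 ± 0.13), each with a limma adjusted p of 0.00318 or less. Rarb read 377, 422, 297 and 507 without ATRA and 1689, 1152, 1427 and 1507 with it, so it was detected without ATRA. Dhrs3 read 2686 and 1690 in control cells, 5752 and 7267 with IL-13 alone, and 14083 to 17124 with ATRA. It was thus higher with IL-13 alone than in control cells. Cyp26a1, the enzyme that clears retinoic acid, was above background on 1 array and not tested. Of 12 tested targets known from other cells 5 rose and 1 fell, Ccr9. The risers were again Dhrs3, Nrip1 and Rarb, which are on both lists, with Tgm2, transglutaminase 2, at 4.74 ± 0.27, and Hic1. Hic1 read 2.15 to 6.89 without ATRA, where it was above background on 0 of 4 arrays, and 10.6 to 31.6 with it, on 3 of 4. Ccr9 read 14.2 to 21.9 without ATRA, on 4 of 4 arrays, and 3.52 to 11.4 with it, on 1 of 4. Their log2 differences are not given, since at least 1 group lay at background.

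Relatives and partners of the members were read in the same contrast, in which 6047 of all 24016 probes had an unadjusted limma p under 0.05. Of 15 organic anion transporters, 10 were above background on 0 of 8 arrays and 5 were tested. Apart from the member Slco2b1, whose ATRA difference the rule chose, 0 of the 4 tested were called by limma, with 2 at an unadjusted p under 0.05. Among FAM20 proteins and secretory calcium-binding phosphoproteins 5 were tested beside the member Fam20a, and 2 rose by limma, Fam20c at 2.33 ± 0.21 and Csn3. Csn3 was at background with IL-13 alone, and its signals are given above. It had been listed as a marker of the set, so its rise was known beforehand and is a description only. Fam20c read 1239 to 3583 without ATRA and 11047 to 12410 with it. Of the 7 milk protein genes 3 were tested and 1 rose, again Csn3, whose rise was known beforehand. Lalba was above background on all 8 arrays, Wap on 3 and Csn2 on 1, and Csn1s1, Csn1s2a and Csn1s2b were so on 0. Of 8 osteoclast genes tested beside the member Mmp9, Car2 (1.95 ± 0.09) rose, and Ocstamp (-3.14 ± 0.23) and Dcstamp (-2.05 ± 0.21), both needed for cell fusion, fell.

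Markers of other cell types were also counted, and tested in the same contrast. There 6047 of all 24016 probes had an unadjusted limma p under 0.05, so low counts in these short lists show little. Of the granulocyte list 10 of 12 genes had a probe, and Ly6g and Cebpe had none. Of the 10, 3 to 4 were above background on arrays with ATRA and 4 to 6 on the others. Mpo and S100a8 were so on all 8 arrays and Csf3r on 7, while Elane, Camp and Ngp were so on 0. Limma called 0 of the 4 tested, with 1 at an unadjusted p under 0.05. Of the fibroblast list 1 to 2 of 6 genes were above background with ATRA and 1 without. Col1a2 was so on all 8 arrays and Lum on 1, while Col1a1, Col3a1, Pdgfra and Dcn were so on 0. The dendritic list had 4 of 8 genes above background on every array with ATRA and 3 to 4 on the others. The T cell list had 3 to 4 of 7 in both, with Cd3e, Cd4 and Lck on all 8 arrays. The B cell list had 1 to 2 of 5 with ATRA and 2 to 3 without, and the endothelial list 1 of 5 with ATRA and 1 to 2 without. Of the T cell, B cell, fibroblast and endothelial genes tested (3, 2, 1 and 1), 0 were called by limma and 0 had an unadjusted p under 0.05. Of 4 dendritic genes tested 1 rose, Batf3 (0.89 ± 0.11). Batf3 read 17.3 and 20.9 in control cells and 39.3 and 36.5 with ATRA alone. It read 215 and 513 with IL-13 alone and 422 and 568 with both, so it was higher with IL-13 alone than with ATRA alone. In the macrophage list Fcgr1 rose by 0.74 ± 0.11 and Ptprc fell by 0.50 ± 0.10 (log2).

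Promoter windows in RefSeq were matched for 10 of the 17 member genes, 14 windows in all. They were searched on both strands for half-sites (AGGTCA, its variant AGTTCA, the variant GGGTCA or the variant GGTTCA) as direct repeats with 1, 2 or 5 bases between, the spacing classes that retinoic acid receptors bind. None of the 14 windows held any of the 3, beside 0.222%, 0.268% and 0.0974% of all 32851 windows. At shares this low 14 windows would rarely hold a match, so the search cannot show that members lack such sites. The search reads only 300 bases per start. The promoter of Rarb is shown for comparison, since it holds a repeat with 5 bases between, in capitals, beginning at position -53 (GRCm38.p6 chr14:16575427-16575726, minus strand). Median GC content was 54.5% in member windows and 52.7% in all.
Rarb: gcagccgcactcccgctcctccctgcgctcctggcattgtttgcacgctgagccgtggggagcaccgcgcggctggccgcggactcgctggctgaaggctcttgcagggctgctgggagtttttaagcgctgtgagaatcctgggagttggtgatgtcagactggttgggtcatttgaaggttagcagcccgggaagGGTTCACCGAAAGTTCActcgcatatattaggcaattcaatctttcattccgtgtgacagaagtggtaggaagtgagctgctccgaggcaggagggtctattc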

How the data were processed

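The 8 arrays (design 014868) were read by the authors with Agilent Feature Extraction 10.7.1.1, per the file headers, which subtracted background within each array. The deposited processed signals are in the unit intensity, with no normalization between arrays, and the deposited flags per spot are other values of 0 or 1. The authors also deposited a log2 value table, whose method is not given in the sources used here; it served as an alternative.

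Without control spots there were 43379 spots, for 41174 probes. The rule was applied to the deposited signals, with repeated spots averaged. For the fits, spots called outlying or non-uniform were left out, and each array's log2 75th percentile was subtracted. The model, in limma 3.58.1 (R 4.3.3), had 4 treatment terms and a time term and ran over 24016 probes, and p-values were two-sided and adjusted by Benjamini-Hochberg. The time comparison added an ATRA-by-time term. The scripts were tested on simulated data. Where a gene had 2 member probes, the brighter stood for it. Probes were named through RefSeq accessions (27752), symbols (5533) or synonyms (460), and 7429 kept the array's name. Positions of probes are those of the files (mm9), and promoters are RefSeq's (GRCm38.p6); the builds were not mixed.

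In the labels 12 h arrays are replicate 1 and 24 h arrays replicate 2, so the number is the time and slide, and the time term is the replicate block. Alternatives were quantile scaling, normexp with an offset of 50, the authors' table, other filters, 1 probe per gene, a trended robust prior, no block, a random block and each array left out. Members and lists were chosen with earlier results of these data known. Every member gene may be named. Full values per array were due for the 3 markers, for the members brightest or highest in ratio, and for those at the ends of each comparison; list genes are named where called or where they define a cell type.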

Additional observations from a re-analysis of the deposited data

Results flagged for a closer look

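In 6 of 17 member genes the log2 difference between IL-13 with ATRA and ATRA alone had opposite signs at the 2 times. Of all 24016 probes, 7289 had opposite signs too. There was 1 array per treatment and time, and the difference between the times was not tested. The log2 difference was 0.26 at 12 h and -0.21 at 24 h for Col14a1, 0.55 and -0.49 for Mlxipl, and 0.02 and -0.20 for Slc26a9. In the other direction it was -0.77 and 0.11 for ENSMUST00000181716, -0.18 and 0.36 for Fam20a, and -0.06 and 0.17 for Ndst1. Signal outside the fitted values appeared on 2 arrays with IL-13 alone. The second Col14a1 probe read 129 at 12 h, against 1.9 to 5.03 on the other arrays. For Bmp2, 1 of 10 spots read 446 at 24 h, against 5.83 for the next highest.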

How the results depend on the processing

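The set had 19 probes and 17 genes; with a fold of 8 it had 11 and 9, and with scaled signals 22 and 20, adding Fpr2, Rarb and Trem1. Leaving out probes with an outlying spot gave 16 and 15, without Bmp2 and Gja1; leaving out only such spots (chosen after seeing the data) kept the same 17 genes. Between IL-13 with ATRA and ATRA, 81 probes were called, against 3 with no filter, 148 when detected on all 8 arrays, 265.0 with a trended robust prior, 141 with a random block, 2 with those groups alone and 3 to 60 with an array left out. Member calls numbered 0, but 1 with normexp (Slco2b1), where the members' median was -0.087; it was -0.84 to -0.18 with an array left out. For time, 0 probes were called, 3 with the trended robust prior and 0 to 3 with an array left out; the members' median of 0.44 was 0.25 with normexp. The interaction called 3 probes, 0 with the authors' table, no filter, the 8-array filter or the trended prior, 1 without the block, and 0 to 10 with an array left out. ATRA-containing against other arrays called 1863, against 153 with no filter and 476 to 2097 with an array left out; retinoid genes called lower were 0, but 1 with normexp, the 8-array filter, the trended prior, no block, a random block or an array left out (0 to 1), and those higher 3 to 5. Without the replicate block, 108 probes were called between IL-13 with ATRA and ATRA and 0 members.

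Of 288 values of single members, 16 changed sign: Fam20a at its other probe (-0.048), Slc26a9 with normexp (0.016), and with an array left out Bmp2 (-1.19 to 0.0037), Ccdc65 (-0.15 to 0.43), Col14a1 (-0.37 to 0.42), ENSMUST00000181716 (-0.91 to 0.25), Fam20a (-0.11 to 0.28), Mlxipl (-0.48 to 0.54), Ndst1 (-0.44 to 0.56) and Slc26a9 (-0.43 to 0.25). Slco2b1, Tspan18, Plppr3, Anxa3, Gja1, BC106179, Camkk1, Cmah and Mmp9 kept their direction under every alternative run. The cause of these shifts was not tested. Members have no value with the 8-array filter, and time could not be fitted without a time term. Signals near background limit what the arrays without ATRA show.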

Other observations

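The genes next to the members in RefSeq order were looked at after the members' values were known, as a description. Of 32 neighbours 23 were tested in ATRA-containing against other arrays by limma, of which 5 were called higher and 2 lower, with a median log2 difference of 0.09; over all probes 2.8% were called higher and 4.96% lower. These 7 were above background on all 8 arrays. Slc12a5, the neuronal potassium-chloride cotransporter KCC2, which follows Mmp9, was higher by 3.74 ± 0.15 (log2 ± SE; limma adjusted p = 0.00116). St6gal1, a sialyltransferase that follows the lncRNA BC106179, was higher by 2.44 ± 0.19 (limma adjusted p = 0.00467). The others called higher were Fkbp11 beside Ccdc65 (1.05), Tbl2 beside Mlxipl (0.82) and Zfp335 beside Mmp9 (0.47). Carmil1 beside Cmah (-1.05) and Cd82 beside Tspan18 (-0.44) were lower.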
